A study of Mus musculus with 2 samples.

Results

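Pancreatic polypeptide (PP) cells of mouse islets in which insulin, glucagon and somatostatin transcripts each stayed under 5% were described across genes and compared between virgin and multiparous mice. A cell was a member when Ppy made up at least 5% of its transcripts while Ins1 and Ins2 together, Gcg and Sst each stayed under 5%. Transcripts were counted as unique molecular identifiers (UMIs), which mark single captured RNA molecules. This rule found 174 cells among 7765 kept cells, 87 of 4391 in the virgin library and 87 of 3374 in the multipara library. The cell filter asked for over 200 and under 6000 detected genes, a total below 60000 UMIs and a mitochondrial share below 10%, and passed 7765 of 10538 barcodes. Levels of Ppy, Ins1, Ins2, Gcg and Sst chose the cells and are given as descriptions only.

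Islets came from female C57BL/6J mice that had gone through 3 consecutive pregnancies from the age of 9 weeks, taken 3 weeks after the last delivery (multipara), and from age-matched virgin females. No transgene or other genetic change was named for either group. Islet cells were released with trypsin and their RNA was counted by droplet single-cell sequencing of transcript 3′ ends, with 1 library per group. The study's legend names at least 2 per group for the single-cell data, but the exact number behind each library was not given in the sources used here and cells cannot be traced to a mouse. Multiparous and virgin mice were therefore set side by side as 2 libraries, with no test between them.

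PP cells are one of the rarer endocrine cell types of the islet, beside the insulin-producing beta cells, the glucagon-producing alpha cells and the somatostatin-producing delta cells. Pancreatic polypeptide, encoded by Ppy, is released after meals under vagal control and acts mainly on the Y4 receptor, and it slows gastric emptying and pancreatic exocrine secretion. Peptide YY, encoded by Pyy, belongs to the same peptide family as neuropeptide Y and is made by L cells of the gut as well as by islet cells. In mice PP cells lie mostly in the part of the pancreas that develops from the ventral bud.

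Depth was 94853806 UMIs over 5463 virgin barcodes and 82503776 UMIs over 5075 multipara barcodes, of which 80.4% and 66.5% passed the filter. PP cells had a median of 21878 UMIs and 3115 genes in the virgin library and 22056 UMIs and 3164 genes in the multipara library, with a median mitochondrial share of 3.31% in both. Of the 7 barcodes that occurred in both libraries, 1 belonged to a multipara PP cell. Scrublet called 61 virgin and 44 multipara cells doublets (droplets with more than 1 cell), 1 PP cell in each library among them. Doublets were kept, because the rule names no such step.

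Ppy and Pyy are neighbours on mouse chromosome 11, both on the minus strand, at chr11:102099930-102101319 and chr11:102106676-102107832 in GRCm38.p6, with 5356 bases between them. Their upstream sequences are shown because these genes together gave a median of 56.3% of the UMIs of a virgin PP cell and 57.9% of those of a multipara PP cell. The windows are the 250 bases before the annotated start, chr11:102101320-102101569 for Ppy and chr11:102107833-102108082 for Pyy, from RefSeq, written 5′ to 3′ on the minus strand, with matches to TATAAN in capitals:
Ppy: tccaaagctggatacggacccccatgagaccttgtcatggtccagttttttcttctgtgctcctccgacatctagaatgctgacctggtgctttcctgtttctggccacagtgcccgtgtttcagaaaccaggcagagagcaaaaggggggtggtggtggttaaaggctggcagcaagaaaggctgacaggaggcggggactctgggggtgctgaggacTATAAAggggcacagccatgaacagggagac
Pyy: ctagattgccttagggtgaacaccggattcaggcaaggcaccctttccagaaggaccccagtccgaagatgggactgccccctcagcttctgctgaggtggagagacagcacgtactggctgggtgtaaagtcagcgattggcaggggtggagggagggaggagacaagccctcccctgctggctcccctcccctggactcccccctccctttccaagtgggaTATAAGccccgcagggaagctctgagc

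TATAAN (either strand searched) occurred 1 time in each window, as TATAAA from 31 to 26 bases before the Ppy start and as TATAAG from 27 to 22 bases before the Pyy start. Among 32851 promoter windows of the same length, 22.7% held TATAAN on either strand. CANNTG, the core bound by many basic helix-loop-helix factors, occurred only in the Pyy window, 36 to 31 bases before the start as CAAGTG, against 66.2% of all windows. TAAT, the core bound by many homeodomain factors such as Isl1 and Pdx1, was in neither window and in 54.9% of all windows. The distances for Pyy depend on the entry used. Another RefSeq entry of Pyy has its window at chr11:102107777-102108026. Before that start, TATAAG lay at 83 to 78 bases and CAAGTG at 92 to 87 bases. These matches describe the letters of the windows and nothing about binding.

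Ppy took a median of 42.2% of the UMIs of a virgin PP cell, between 7.19% and 65.0%, and 46.8% of the UMIs of a multipara PP cell, between 5.67% and 56.8%. Just inside the 5% threshold lay virgin cells at 7.19% and 7.68% and multipara cells at 5.67% and 13.7%, and just outside it, among cells that met the rest of the rule, virgin cells at 4.57% and 4.21% and multipara cells at 0.647% and 0.272%.

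Pyy, which the rule did not use, took a median of 10.0% of the UMIs of virgin PP cells, between 3.30% and 31.3%, and 11% in multipara PP cells, between 3.14% and 33.0%. All 174 cells held it. The ratio of Pyy to Ppy varied widely between cells, from 0.0633 to 1.36 Pyy UMIs per Ppy UMI in the virgin library and from 0.0582 to 1.34 in the multipara library, with medians of 0.274 and 0.259. After each cell was thinned to 10000 UMIs, Ppy and Pyy UMIs were weakly and inversely related, with Spearman's rho of -0.29 over 78 virgin cells and -0.23 over 83 multipara cells (Pearson's r -0.22 in both). Cells of 1 library and the fixed total of UMIs are shared by these points, so the values are descriptions.

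**Figure D1:**
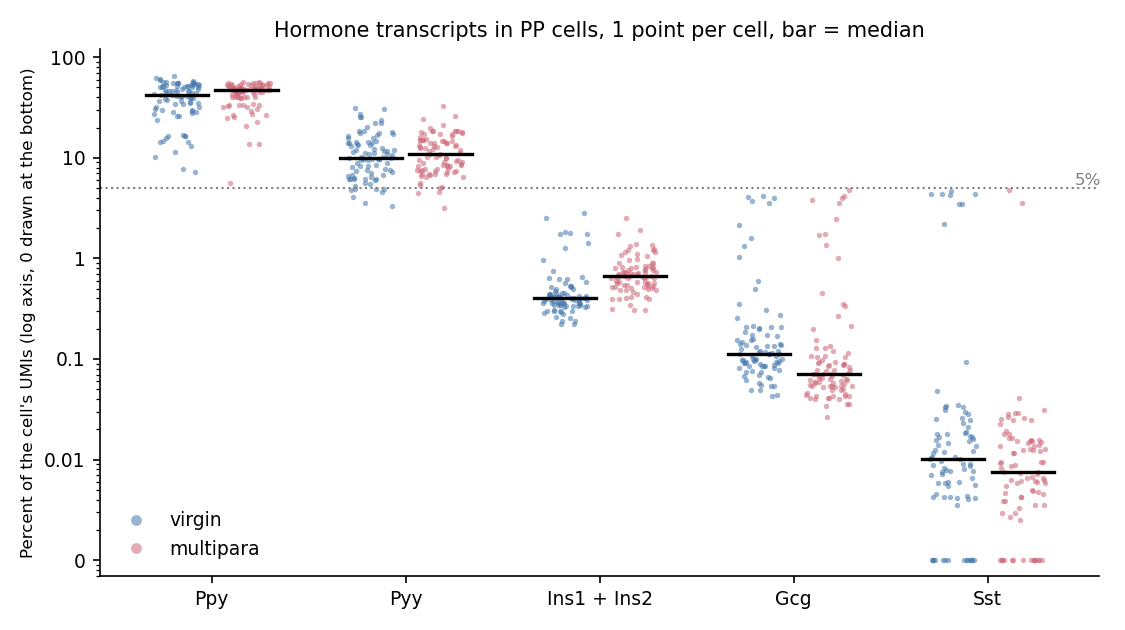
Percent of each PP cell's UMIs from Ppy, Pyy, Ins1 and Ins2 together, Gcg and Sst (log axis, zero at the bottom), with 1 point per cell, a bar at the median and the 5% threshold dotted, for 87 virgin (blue) and 87 multipara (red) cells. Ppy medians were 42.2% and 46.8% and Pyy medians 10.0% and 11%, while insulin, Gcg and Sst medians were under 1% and a few cells came close to the threshold.

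Insulin transcripts had a median of 0.403% in virgin and 0.672% in multipara PP cells, and Gcg 0.112% and 0.0709%. Endothelial cells, which make no islet hormone, held a median of 0.736% and 1.47% Ins2 alone and 0.181% and 0.119% Gcg at median depths of 4502 and 5644 UMIs. PP cells were deeper, and the order depended on the measure. As shares, the insulin and Gcg medians were lower in PP than in endothelial cells, but in UMIs a PP cell held a median of 85 and 152 of insulin and 23 and 17 of Gcg, against 49 and 123 and 8 and 8 in an endothelial cell. Sst had a median of 2 UMIs per PP cell in both libraries (0.0101% and 0.00746%), and of 1 and 0 UMIs per endothelial cell.

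Some PP cells held more. Gcg reached at least 1% of UMIs in 9 virgin and 10 multipara cells, Sst in 8 and 2 cells, and insulin in 8 and 14 cells, and the remaining 64 cells of each library had every other hormone under 1%. The 8 virgin and 2 multipara cells with at least 1% Sst each held at least 1 UMI of Hhex, the transcription factor that marks delta cells. Of the cells with Sst under 1%, 0 of 79 virgin and 1 of 85 multipara cells did. Virgin cells with at least 1% insulin were shallow, with a median of 2427 UMIs, against 11811.5 in the multipara library. Whether these were cells of mixed identity or droplets with more than 1 cell was not tested.

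Droplets with at least 5% Ppy and a second hormone at or above 5% were more numerous than PP cells. Of 295 virgin and 252 multipara kept droplets with at least 5% Ppy, Sst was the only partner in 107 and 81, Gcg in 67 and 64 and insulin in 23 and 13, and 11 and 7 had more than 1 partner. Another 9 virgin and 10 multipara barcodes met the hormone rule but failed the cell filter.

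Genes outside the rule were then compared between the classes. The markers Pyy, Tspan8 and Folr1 were chosen with earlier results of these data known. Their calls are therefore no independent check of identity. Pyy, Tspan8 and Folr1 were all called higher in PP cells than in alpha, delta and beta cells that were chosen by the same rule with their own hormone (1040 and 636 alpha, 254 and 236 delta and 1863 and 1712 beta cells in the virgin and multipara libraries). UMIs were summed per class and library and compared with edgeR's quasi-likelihood test on these 8 sums with the library as a term. A gene was called at an adjusted p under 0.05 and at least 2-fold. Because the library is a term, the p-values measure only how far the differences between classes varied between these 2 libraries. The estimate of this spread was shared by all classes. The 2 libraries are also the 2 groups, so a difference between virgin and multipara that varies by class is part of this spread.

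Tspan8, a tetraspanin of epithelial surfaces, was at 789 CPM (counts of a gene per 1000000 UMIs summed over the cells) in virgin and 633 CPM in multipara PP cells. It was at 29.3 and 17 CPM in alpha, 440 and 424 in delta and 23.4 and 13.7 in beta cells, so the order was PP, delta, then alpha and beta in both libraries. Its log2 fold change in PP cells was 5.23 against alpha (SE 0.16, edgeR adjusted p = 1.4e-10), 1.53 against delta (SE 0.13, 3.2e-06) and 5.14 against beta cells (SE 0.15, 1.7e-11), but with library sizes in place of TMM factors the value against delta was 0.71 and the call was lost. A UMI of Tspan8 was found in 95.4% of virgin and 98.9% of multipara PP cells, and in 78 of 78 and 83 of 83 cells thinned to 10000 UMIs. The shares in endothelial cells were 8.11% and 15.1%, and 3 of 31 and 15 of 46 after thinning.

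Folr1, a folate receptor held in the membrane by a lipid anchor, was at 307 and 329 CPM in virgin and multipara PP cells, 46.9 and 41.6 in alpha, 279 and 229 in delta and 31.9 and 20.8 in beta cells. It was found in 86.2% and 95.4% of PP cells, against 0.772% and 1.95% of endothelial cells, and after thinning in 70 of 78 and 77 of 83 PP cells against 0 of 31 and 1 of 46 endothelial cells. The log2 fold change was 3.15 against alpha and 3.48 against beta cells. Against delta cells it was 1.16 (SE 0.13, edgeR adjusted p = 3.5e-05), or 0.34 and not called with library sizes only, so Folr1 and Tspan8 set PP cells apart from alpha and beta cells far more than from delta cells.

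Pyy was at 121748 and 120639 CPM in PP cells, 44945 and 37422 in delta, 15489 and 16814 in alpha and 768 and 280 in beta cells. Its log2 fold change was 3.19 against alpha (SE 0.27), 2.40 against delta (SE 0.26) and 7.80 against beta cells (SE 0.34), with edgeR adjusted p-values of 3.7e-06, 2.6e-05 and 8.1e-10. Ppy was at 18002 and 18749 CPM in delta cells, which the rule limits to under 5% Ppy in each cell.

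Most genes did not separate PP cells. Of 12300 genes tested, 348 (2.83%) were called higher and 353 (2.87%) lower than in alpha cells, 355 (2.89%) higher and 645 (5.24%) lower than in delta cells, and 960 (7.8%) higher and 1106 (8.99%) lower than in beta cells. Against all 3 classes 52 genes were higher (0.423%) and 46 lower (0.374%), and 9534 (77.5%) had no call in any comparison. TMM factors, which scale libraries so that the typical gene does not differ, moved the median gene by 0.30, 0.84 and -0.12 on the log2 scale relative to CPM against alpha, delta and beta cells. With library sizes only, an alternative chosen after seeing the data, 182 genes were higher and 3925 lower than in delta cells, 269 and 778 than in alpha cells and 1161 and 884 than in beta cells, and 34 higher and 136 lower against all 3, of which 33 and 41 were among the 52 and 46. Calls of a gene as higher than in delta cells therefore depend on the scaling unless the fold is large. The calls against all 3 classes also depended on the cells. With every other hormone under 1%, 46 were higher and 52 lower among 11309 genes tested, and 31 and 26 of these were among the 52 and 46. With DESeq2, 48 and 31 were shared.

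The genes named as higher against all 3 classes were the 15 with the largest smallest-of-3 fold change, and beside Pyy they were led by Spp1 and Cd9. Spp1 encodes osteopontin, a secreted matrix phosphoprotein that ductal cells also make, and was at 335 and 429 CPM in virgin and multipara PP cells, 35.4 and 75.9 in alpha, 68.7 and 80.3 in delta and 1.5 and 3.22 in beta cells. Its log2 fold changes were 3.14, 3.18 and 7.24 against alpha, delta and beta cells (edgeR adjusted p between 8.6e-12 and 4.3e-08). A UMI of Spp1 was found in 75.9% and 82.8% of PP cells (65.4% and 75.9% thinned) and in 0.772% and 0 of 205 endothelial cells, the latter allowing a share of up to 1.78% by the exact binomial interval.

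Cd9, a tetraspanin like Tspan8, was at 103 and 87.5 CPM in PP cells against 18.8 and 16.5 in alpha, 7.47 and 7.56 in delta and 5.48 and 2.75 in beta cells, with log2 fold changes of 2.73, 4.5 and 4.4. Endothelial cells also held Cd9 (49.8% and 42.9% of cells, against 74.7% and 75.9% of PP cells), so its share of positive cells does not mark PP cells among all islet cells.

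Kdelr3, a receptor that returns proteins to the endoplasmic reticulum, was at 30.0 and 40.2 CPM in PP cells and between 3.60 and 16.8 CPM elsewhere. Serpina7, which encodes thyroxine-binding globulin, was at 22.7 and 41.1 CPM in PP cells and at 2.37 to 12.8 in the other classes. Limch1, an actin-binding protein, was at 31.1 and 24.4 CPM in PP cells and at 10.8 and 10.7 in beta cells, and was almost missing from alpha cells at 0.540 and 0.455 CPM, so its log2 fold change was 6.05 against alpha but 1.21 against beta cells. Klf2, a Kruppel-like factor, was at 180 and 200 CPM against 34.6 to 92.9 elsewhere.

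Gpx2 (a glutathione peroxidase), Snhg18 (a long noncoding RNA), Maged2, Ugt2b34 (a glucuronosyltransferase) and Plk2 (a polo-like kinase) were also among them. Their smallest log2 fold changes lay between 1.14 for Plk2 against alpha cells and 1.76 for Gpx2 against delta cells. With library sizes only, calls were lost for Gpx2 and Snhg18 against delta (0.93 and 0.88), for Maged2 and Plk2 against alpha (0.93 and 0.85) and delta cells (0.65 and 0.92) and for Ugt2b34 against alpha cells (0.93). Spp1, Cd9, Kdelr3, Serpina7, Klf2 and Limch1 kept their calls against all 3 classes under that scaling.

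**Figure D2:**
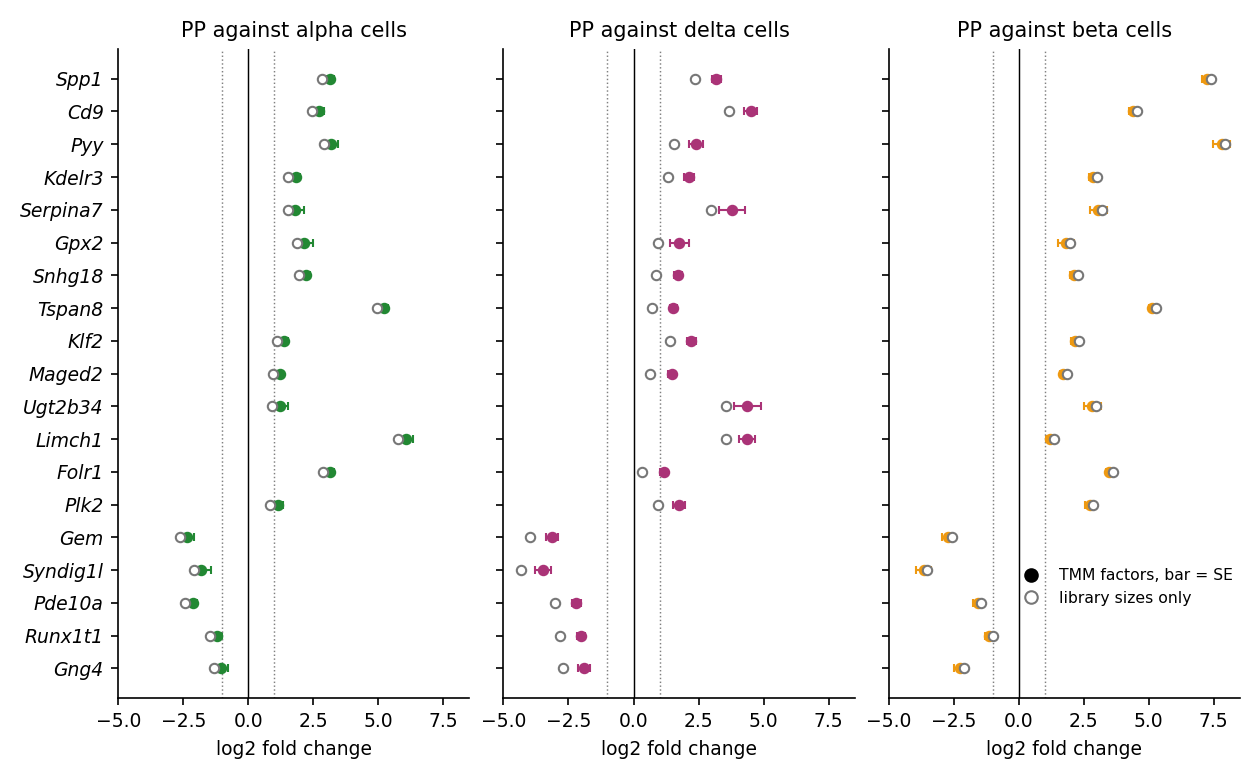
Log2 fold change of PP cells against alpha, delta and beta cells for 14 of the 15 higher and the 5 lower genes named by the rule (filled points with SE, TMM factors) and the same with library sizes only (open points), with dotted lines at 2-fold. Against delta cells the open points of Tspan8 (0.71), Folr1 (0.34), Maged2 (0.65), Gpx2 (0.93), Snhg18 (0.88) and Plk2 (0.92) fall inside the lines, while Spp1 and Cd9 stay outside under both scalings.

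Lower in PP cells than in all 3 classes, with at least 20 CPM in each of those, were Gem, Syndig1l, Pde10a, Runx1t1 and Gng4. Gem, a small GTPase that restrains voltage-gated calcium channels, was at 12.1 and 12.4 CPM in PP cells, 76.4 and 75.2 in alpha, 149 and 238 in delta and 71.6 and 72.4 in beta cells. Its log2 fold changes were -2.35, -3.14 and -2.70 (edgeR adjusted p = 1.9e-05, 9.3e-07 and 8.2e-07). Pde10a, a phosphodiesterase of cAMP and cGMP, was at 24.8 and 19.1 CPM against 52.2 to 190 CPM elsewhere, and Syndig1l was at 8.43 and 2.87 CPM against 21.1 to 116. Runx1t1, a transcriptional corepressor, differed by -1.19, -2.02 and -1.15 from alpha, delta and beta cells, and Gng4, a G protein gamma subunit, by -1.03, -1.89 and -2.27.

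Among 59 transcription factor genes tested, 5 were higher and 9 lower in PP than in alpha cells, 8 and 11 than in delta cells and 13 and 12 than in beta cells, and 24 had no call. The shares called in either direction over all genes were 5.70%, 8.13% and 16.8% against alpha, delta and beta cells. With library sizes only, 6 of the transcription factors were higher and 26 lower than in delta cells, where the share called over all genes was 33.4%. The median log2 fold changes of the list were -0.03, -0.18 and 0.07, beside -0.010, 0.0026 and -0.0082 over all genes tested.

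Irx1, an Iroquois factor of alpha cells, was found in 3 virgin and 6 multipara PP cells of 87 each, against 66.4% and 67.1% of alpha cells, and its log2 fold change against alpha cells was -4.77. Irx2, of the same family, was at 11.1 and 11.5 CPM in PP cells, 104 and 93.8 in alpha, 6.72 and 7.56 in delta and 1.82 and 1.06 in beta cells, and its call as higher than in delta cells was lost with library sizes only (0.67).

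Nkx6-1, a factor of beta cells, was at 55.3 and 44.5 CPM in PP cells, above alpha (16.6 and 15.6; log2 fold change 1.92) and delta cells (10.5 and 10.1; 3.1) and below beta cells (237 and 217; -2.33). It was found in 63.2% and 62.1% of PP cells, 19.3% and 20.9% of alpha, 8.27% and 8.47% of delta and 2.32% and 6.34% of endothelial cells, and in 28 of 78 and 28 of 83 PP cells after thinning. Pdx1, which beta and delta cells require, was at 11.6 and 12.4 CPM in PP cells, 3.00 and 3.27 in alpha and 87.4 to 105 CPM in delta and beta cells (log2 fold change 2.25 against alpha, -2.12 against delta and -3.16 against beta cells). Mlxipl, the glucose-responsive factor ChREBP, followed the same order, with 1.40, -1.53 and -2.44.

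Rfx6, a factor that acts throughout endocrine differentiation, was the transcription factor lower in PP cells than in every other class, at 7.91 and 4.78 CPM against 17.2 to 47.9 CPM (log2 fold changes -1.57, -2.05 and -1.80). Insm1, another pan-endocrine factor, was lower than in delta (-1.32) and beta cells (-1.72) and did not differ by the test from alpha cells (-0.20, SE 0.15, edgeR adjusted p = 0.45). Nr4a2 was lower than in alpha (-1.36) and beta (-1.28) and higher than in delta cells (1.39), the last lost with library sizes only (0.56). Myt1 was lower than in alpha (-1.15) and beta cells (-1.07), the latter lost with library sizes only (-0.92). Lmo4 was higher than in delta (2.63) and beta cells (1.33), the latter lost without cells that held 1% or more of another hormone (1.07, edgeR adjusted p = 0.092).

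Hhex, the delta cell factor, was at 16.3 and 7.65 CPM in PP cells, below delta cells (353 and 364; log2 fold change -4.11) and called higher than in alpha (2.81) and beta cells (2.25). Both higher calls were lost when cells with 1% or more of another hormone were left out (-0.65 and -0.43, edgeR adjusted p = 0.84 and 0.86), and cells with at least 1% Sst are among those left out. Sox9, a factor of ductal and progenitor cells, was seen in 7 virgin and 2 multipara PP cells, was called higher than in alpha (5.27) and beta cells (3.68), and had too few UMIs to be tested in the stricter set. Egr4, an activity-induced factor, was at 3.16 and 6.69 CPM in PP cells and was lower than in alpha (-2.96) and delta cells (-3.28).

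**Figure D3:**
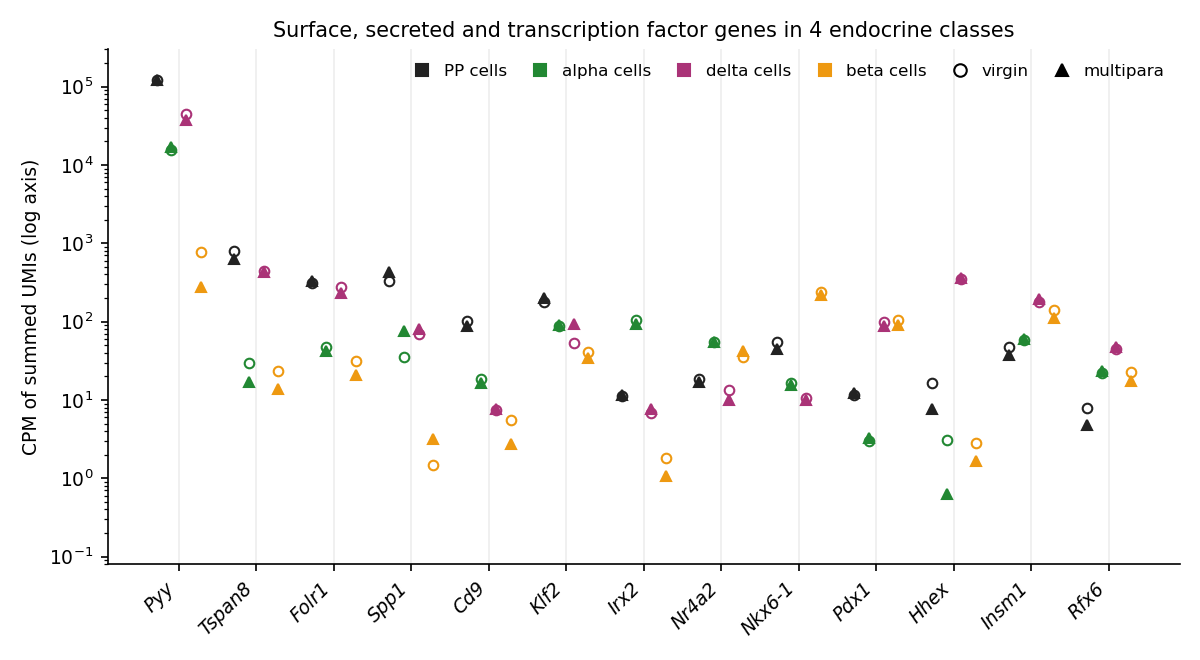
CPM of summed UMIs (log axis) of surface, secreted and transcription factor genes in PP, alpha, delta and beta cells of the virgin (circles) and multipara (triangles) libraries, 1 point per class and library. Tspan8, Folr1, Spp1 and Cd9 were highest in PP cells, and Nkx6-1 lay between beta cells and the other classes.

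Of 41 surface and adhesion genes tested, 11 were higher and 3 lower in PP than in alpha cells, 5 and 8 than in delta cells (2 and 15 with library sizes only) and 15 and 4 than in beta cells. The shares called over all genes were 5.70%, 8.13% and 16.8%, and 33.4% against delta cells with library sizes only. Against all 3 classes 4 (Tspan8, Cd9, Folr1 and Vsig1) were higher, beside 0.423% of all genes. Tspan8 and Folr1 are markers chosen with earlier results of these data known, so this count is no independent result about the list. Both also lost the call against delta cells with library sizes only (0.71 and 0.34). The list medians were 0.63, -0.16 and 0.62. Vsig1, an immunoglobulin-domain protein of the gastric epithelium, was rare: PP cells held 14 virgin and 16 multipara UMIs in 13 and 14 cells (7.38 and 7.65 CPM), against 0.152 to 0.180 CPM in virgin and 0.0423 to 0.273 CPM in multipara alpha and beta cells and 0 UMIs in delta cells. Its log2 fold changes were 5.37 and 6.03 against alpha and beta cells (edgeR adjusted p = 0.00025 and 1.4e-05), and no endothelial cell held it.

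Other surface genes followed 1 or more of the other cell types. Fxyd3, a regulator of the sodium pump, was at 64.3 and 49.3 CPM in PP and 121 and 103 CPM in delta cells, and at 3.07 to 15.5 CPM in alpha and beta cells (log2 fold changes 2.44 and 2.92). Sdc4, a syndecan, was higher than in delta (1.46) and beta cells (1.23), the former lost with library sizes only (0.64). Cadm1 and Dpp10 were lower than in alpha cells (-2.91 and -4.31) and delta cells (-3.20 and -2.78), and Fxyd6 was lower than in delta (-2.18) and beta cells (-1.09), the latter lost with library sizes only (-0.94).

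Cd24a, Ly6h, Dpp6 and Cd44, all highest in delta cells, were called higher in PP than in alpha cells (2.02, 3.45, 1.57 and 2.90) and lower than in delta cells (-3.95, -4.41, -3.53 and -2.60). The calls against alpha cells were lost without the cells that held 1% or more of another hormone, at 0.93, 1.12, -0.99 and 1.18 (edgeR adjusted p = 0.34, 0.67, 0.49 and 0.57). Ly6h was found in only 8 virgin and 3 multipara PP cells.

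Of 47 receptor genes that bear on secretion, 3 were higher and 7 lower in PP than in alpha cells, 11 and 8 than in delta cells and 12 and 18 than in beta cells, beside 5.70%, 8.13% and 16.8% of all genes called, and the split against delta cells turned to 10 and 21 with library sizes only. Chrm3, the muscarinic M3 receptor through which acetylcholine stimulates secretion, was at 20.03 and 10.5 CPM in PP cells, 16.2 and 17 in beta, 4.85 and 6.72 in delta and 0.720 and 0.636 in alpha cells. It was higher than in alpha (log2 fold change 4.73, SE 0.37) and delta cells (2.22, SE 0.34) and did not differ by the test from beta cells (-0.28, SE 0.21, edgeR adjusted p = 0.35). A UMI of Chrm3 was found in 32.2% and 21.8% of PP cells, against 5.79% and 4.39% of endothelial cells at their lower depth, without thinning.

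Galr1, a galanin receptor, was at 3.69 and 4.30 CPM in PP cells, above alpha (3.53) and delta (4.15) and below beta cells (-1.80). Among the 7 receptors lower than in alpha cells, Oxtr, the oxytocin receptor, was at 5.27 and 6.22 CPM against 46.1 and 48.0 in alpha cells (-2.76), Avpr1b, a vasopressin receptor, at 4.22 and 1.91 against 19.4 and 14.9 (-2.22), and Adrb1, the beta-1 adrenergic receptor, at 2.11 and 0.956 against 13.1 and 8.09 (-2.51). Adra2a, the inhibitory alpha-2A adrenergic receptor, was at 1.05 and 2.39 CPM in PP cells against 77.4 and 72.7 in beta (-5.56) and 38.1 and 43.7 in delta cells (-3.71).

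P2ry1, a purinergic receptor, was also low, at -4.57 against delta and -4.34 against beta cells. Mc4r, the melanocortin-4 receptor, had 3.16 and 4.30 CPM in PP cells, 2.46 and 2.18 in alpha cells and 0 UMIs in beta cells. Gabbr2, a subunit of the GABA-B receptor, was higher than in delta (3.76) and lower than in beta cells (-1.55), and Fgfr1 was higher than in beta cells (2.21). Igf1r, the IGF-1 receptor, was lower than in delta (-1.03) and beta cells (-1.73). Low UMI numbers limit these receptors: several, Mc4r and Adrb1 against delta cells among them, lost the call in the stricter set.

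Of 58 genes of ion channels, transporters and glucose handling, 6 were higher and 5 lower in PP than in alpha cells, 6 and 11 than in delta cells (4 and 27 with library sizes only) and 15 and 10 than in beta cells, beside the same shares of all genes. Kcnk3, a background potassium channel, was at 69.0 and 62.2 CPM in PP cells, near alpha cells (95.2 and 80.8) and far above beta cells (2.46 and 0.677; log2 fold change 5.23). Gria3, an AMPA-type glutamate receptor subunit, behaved alike, at 22.7 and 31.1 CPM in PP and 34.0 and 30.0 CPM in alpha cells and higher than in delta (2.39) and beta cells (2.82). Hk1, the low-Km hexokinase that beta cells keep off, was at 7.38 and 7.65 CPM in PP cells, 9.12 and 8.18 in alpha and 0.284 and 0.296 in beta cells (4.52).

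Among the genes lower than in alpha cells were the amino acid transporters Slc38a5, Slc38a4 and Slc7a8. Slc38a5 had 2 virgin UMIs and 1 multipara UMI in PP cells against 75.5 and 173 CPM in alpha cells (log2 fold change -7.04, SE 0.59, edgeR adjusted p = 3.1e-06), Slc38a4 was at 10.0 and 6.69 CPM against 60.9 and 56.7 (-2.54), and Slc7a8 at 18.4 and 13.9 against 77.7 and 73.1 (-1.94). Slc4a4, a sodium bicarbonate cotransporter, was higher than in alpha (1.99) and beta cells (2.58). Kcnb2, a delayed-rectifier potassium channel subunit, was lower against all 3 classes (-2.31, -3.87 and -2.47). Scn3b, a sodium channel subunit, was higher than in alpha (1.65) and beta cells (4.06), Kcnh6 had 0 UMIs in delta cells and was higher than in beta cells (1.78), and Trpm4 was lower than in delta (-1.27) and beta cells (-1.38), the former lost without cells that held 1% or more of another hormone (-1.22, edgeR adjusted p = 0.11).

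Of 33 granule and prohormone-processing genes tested, 3 were higher and 3 lower in PP than in alpha cells, 3 and 1 than in delta cells and 3 and 10 than in beta cells, beside 5.70%, 8.13% and 16.8% of all genes called. With library sizes only, 2 were higher and 14 lower than in delta cells and 3 and 9 than in beta cells. Chga, which encodes chromogranin A, was at 3601 and 2291 CPM in PP, 7833 and 6631 in alpha, 4176 and 4022 in delta and 7483 and 6200 in beta cells (log2 fold changes -1.03, 0.32 and -1.38). Slc30a8, the zinc transporter of insulin and glucagon granules, was at 59.6 and 61.7 CPM in PP cells, 515 and 457 in alpha, 504 and 360 in beta and 16.8 and 18.9 in delta cells. Vgf, which encodes a granin-like precursor, had 0 virgin UMIs in PP cells and 2.39 CPM in multipara PP cells, against 29.1 and 35.2 CPM in alpha cells.

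Pcsk1, the prohormone convertase that processes proinsulin, was at 21.1 and 12 CPM in PP cells and 163 and 170 in beta cells (log2 fold change -3.49), and Pcsk2, the convertase of proglucagon, was not called against any class, at 1446 and 1504 CPM in PP cells. Both convertases were named after their values were seen. Among 9 peptide hormone genes tested, Pyy and Iapp included, 2 were higher and 1 lower than in alpha cells, 1 and 4 than in delta cells and 1 and 4 than in beta cells. The shares called over all genes were 5.70%, 8.13% and 16.8%. Iapp, which encodes amylin, was at 4119 and 2239 CPM in PP cells, 1164 and 1160 in alpha, 25083 and 28192 in delta and 43312 and 43645 in beta cells, and its calls against alpha (1.71) and delta cells (-2.27) were lost with DESeq2 (adjusted p = 0.50 and 0.27). Pdyn was lower than in delta (-4.44) and beta cells (-5.0), and Npy and Gast had 0 UMIs in PP cells.

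Amylin transcripts in PP cells came mostly from few cells. Iapp reached 1% of UMIs in 8 virgin and 3 multipara PP cells, which held 72.8% and 60.2% of all Iapp UMIs of the PP cells. The median PP cell held 10 and 17 UMIs (0.0494% and 0.0761%), and the median endothelial cell 5 and 12 UMIs (0.101% and 0.183%) at its lower depth. Of the cells with at least 1% Iapp, 2 and 1 also held at least 1% Sst, 2 and 1 at least 1% insulin, and 4 and 1 neither.

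Among 50 genes of protein folding in the endoplasmic reticulum, none was called against alpha cells, 1 was higher and 1 lower than in delta cells, and 19 were lower and none higher than in beta cells, beside 8.99% of all genes lower, with a median log2 fold change of -0.75 (17 lower with library sizes only). No call was made among 79 nuclear oxidative phosphorylation genes against alpha or delta cells, and 2 were higher and 1 lower than in beta cells. Of 80 cytosolic ribosomal protein genes, 3 were called, all higher than in beta cells, and the list medians were -0.45, 0.24 and 0.65. The shares called in either direction over all genes, to be read beside these 3 lists, were 5.70%, 8.13% and 16.8% against alpha, delta and beta cells. Of the 9 stress genes singled out by the study, Nupr1 (-5.73), Atf5 (-4.51), Ddit3 (-2.38), Sdf2l1 (-1.85), Hspa1b (-1.40) and Hspa1a (-1.21) were lower in PP than in beta cells and Atf3 was higher (1.5). Over all genes, 8.99% were lower and 7.8% higher than in beta cells. The study followed these 9 genes in beta cells of the same libraries.

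Heat shock genes also separated PP from delta cells: Hspa1a was at 157 and 137 CPM in PP cells and 979 and 1470 in delta cells (log2 fold change -2.21), with Hspa1b at -2.16 and Dnajb1 at -1.19. Fkbp11, a peptidyl-prolyl isomerase of the endoplasmic reticulum, was higher in PP than in alpha cells (1.89), at 54.8 and 66.5 CPM against 16.7 and 23.3. Nupr1 had 6 virgin and 8 multipara UMIs in all PP cells together.

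Markers of other cell types were summed over each list. Without the hormones of the rule, beta cell markers gave 4248 and 2348 CPM in virgin and multipara PP cells, most of it Iapp, against 45664 and 45989 in beta cells, and alpha cell markers 2557 and 2666 CPM against 40907 and 40261 in alpha cells. Acinar genes gave 23.2 and 21.0 CPM in virgin and multipara PP cells (6 and 11 of 24 genes with a UMI), mesenchymal genes 13.2 and 12.4, macrophage genes 40.1 and 31.1, Schwann cell genes 11.1 and 11.5 and endothelial genes 21.1 and 80.3, while endothelial cells themselves held 22264 and 24452 CPM of the last. Lymphocyte genes gave 42.2 and 5.74 CPM, most of it Igkc, and erythroid genes 1.58 and 13.4 CPM. The ductal list gave 622 and 715 CPM, of which Spp1 was 335 and 429, beside 196 and 219 CPM in alpha, 886 and 903 in delta and 154 and 137 in beta cells, and Ghrl, the hormone of epsilon cells, had 0 UMIs. Delta markers without Sst gave 536 and 413 CPM, against 7030 and 7387 in delta cells. Their part in the values of the classes was not tested.

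In the comparison of multiparous with virgin mice, PP cells made up 2.58% of kept multipara cells (exact 95% interval 2.07 to 3.17) and 1.98% of kept virgin cells (1.59 to 2.44). These intervals overlap and cover counting error only, and without the cell filter the shares were 1.91% and 1.76%. Only 4996 genes had at least 50 UMIs in the PP cells of both libraries together, and 8 of them (0.16%) were at least 2-fold higher and 33 (0.661%) at least 2-fold lower in the multipara library, a split that was 11 and 14 with TMM factors, 15 and 11 with median-of-ratios scaling and 10 and 17 without hormone genes in the totals. Among the 1337 genes with at least 200 UMIs, 0 reached 2-fold. The median log2 ratio of multipara over virgin was -0.09 over all 4996 genes, and the exact counting interval lay above 0 for 78 (1.56%) and below 0 for 425 (8.51%), or for 209 and 182 with TMM factors and 296 and 139 with median-of-ratios scaling. More genes were thus lower than higher in CPM, and this excess depended on the scaling. Ratios below are CPM of summed UMIs with exact conditional binomial 95% intervals.

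**Figure D4:**
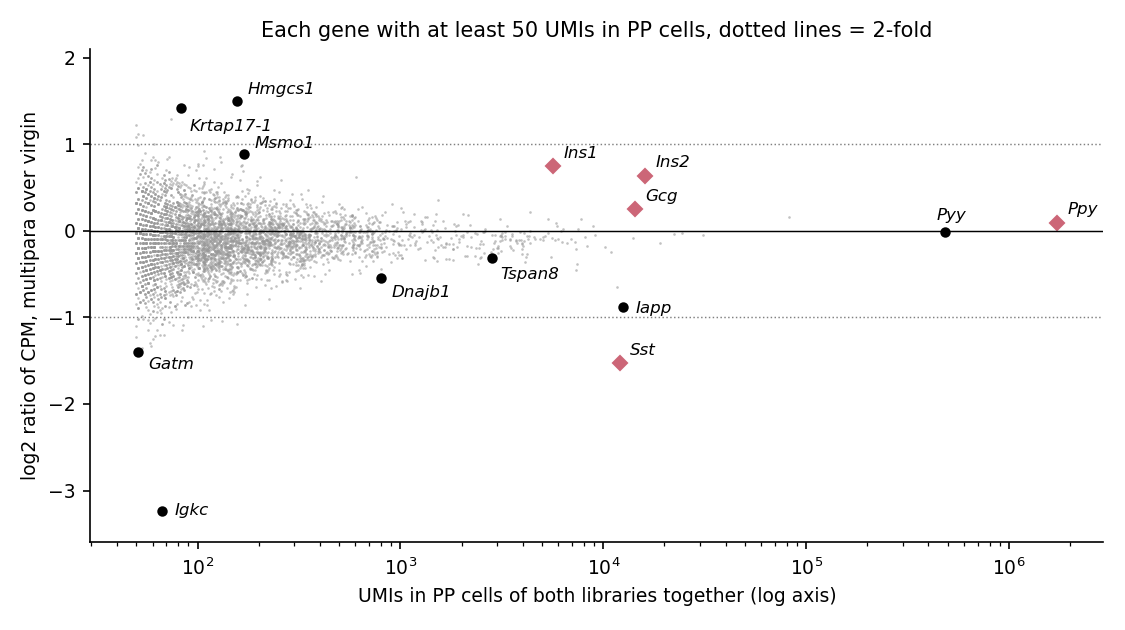
Log2 ratio of CPM, multipara over virgin, against the UMIs in PP cells of both libraries together (log axis), 1 point per gene with at least 50 UMIs, named genes in black and hormones of the rule as red diamonds, dotted lines at 2-fold. Pyy (-0.01) and Ppy lie near 0, Hmgcs1 (1.51) and Igkc (-3.24) lie outside the lines at under 200 UMIs, and the spread narrows as UMIs increase.

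The markers of PP cells were close between the libraries. Pyy had a log2 ratio of -0.01 and Folr1 of 0.10 (interval -0.06 to 0.26), and Cd9 of -0.23 (-0.53 to 0.07). Tspan8 was lower in the multipara library at -0.32 (-0.43 to -0.21), with medians of 0.0731% and 0.0617% of UMIs per virgin and multipara cell. Spp1 was higher at 0.36 (0.21 to 0.51). The ratios of Spp1 in alpha and beta cells were 1.10 and 1.10, while by the CPM given above the rise in delta cells was smaller.

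Hmgcs1, the synthase that commits acetyl-CoA to cholesterol synthesis, was at 20.03 CPM in virgin and 56.9 CPM in multipara PP cells, with 38 UMIs in 23 cells and 119 UMIs in 54 cells. The log2 ratio was 1.51 (0.97 to 2.07), beside 0.49 in alpha, 0.78 in delta and 1.0 in beta cells, and it lay between 1.05 and 2.0 under the alternatives tried. Msmo1, a later enzyme of the same pathway, was at 29.5 and 54.5 CPM (0.89, 0.41 to 1.37), beside 0.45, 0.21 and 0.48 in alpha, delta and beta cells.

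The other genes with the highest ratios had few UMIs. Upp2, a uridine phosphorylase, was at 10.5 and 25.8 CPM with UMIs in 18 and 43 cells (1.29, 0.53 to 2.11), beside -0.12, 0.09 and -0.05 in alpha, delta and beta cells. Acd, a telomere-binding protein, Fam208b, Upf1 (the helicase of nonsense-mediated decay), Dctpp1, Itgav (integrin alpha V), Tbck, Sat1 (a polyamine acetyltransferase) and Coq10a had ratios from 0.90 to 1.22 with lower bounds between 0.05 and 0.32. Krtap17-1 had a ratio of 1.42 from UMIs in 6 and 10 cells, which reversed to -0.62 without cells that held 1% or more of another hormone.

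Igkc, the kappa light chain constant gene of B cells and plasma cells, had the lowest ratio, with 60 UMIs in 43 virgin PP cells and 7 UMIs in 6 multipara PP cells (31.6 and 3.35 CPM, log2 ratio -3.24, -4.61 to -2.11). The same direction held in alpha (-5.23), delta (-3.47) and beta cells (-4.83), and in endothelial cells Igkc was at 49.5 and 3.87 CPM. Igkc was thus found in cells of every class of the virgin library. The 49.4% of virgin PP cells with a UMI stood beside 16.2% of virgin endothelial cells at their lower depth. After thinning the shares were 26.9% of 78 PP cells and 29.0% of 31 endothelial cells. The other 228 virgin endothelial cells were too shallow to thin. The source of Igkc in PP cells was not tested.

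Gatm, the first enzyme of creatine synthesis, was at 19 and 7.17 CPM (log2 ratio -1.40, -2.38 to -0.50), beside 0.03 in alpha and -0.76 in delta cells. Bst2, an interferon-induced membrane protein, was at -1.35, but 21 of its 37 virgin UMIs came from 1 cell. Nfyc, Kpna3, Fam171b, Yeats2, Fiz1, Gpc4, 3830406C13Rik, Ccdc86 and Hdac6 had ratios from -1.36 to -1.14 with upper bounds between -0.46 and -0.33, each on 34 to 56 virgin UMIs and 15 to 28 multipara UMIs.

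Chga and Iapp, products of secretory granules, were lower in the multipara library. Chga was at 3601 and 2291 CPM (log2 ratio -0.65, -0.71 to -0.60), beside -0.24 in alpha, -0.05 in delta and -0.27 in beta cells, with medians of 0.222% of UMIs per virgin cell and 0.150% per multipara cell. Its ratio was -1.09 without cells that held 1% or more of another hormone and -0.30 with a mitochondrial share under 5%. Iapp was at 4119 and 2239 CPM (-0.88, -0.93 to -0.83), but the median cell was higher in the multipara library (0.0494% and 0.0761%), and the ratio was -0.18 with a mitochondrial share under 5%. The 8 virgin and 3 multipara cells with at least 1% Iapp held most of either sum, as given above.

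Hormones of the rule are given as descriptions. Ins1 and Ins2 were higher in the multipara PP cells (log2 ratios 0.75 and 0.64), where endothelial cells also held more of both, Gcg was at 0.25 and Sst at -1.53, the last from 8 virgin and 2 multipara cells with at least 1% Sst. Ppy itself was at 418129 and 446650 CPM.

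The stress genes that the study followed in beta cells were not higher as a group in multipara PP cells. Of the 7 with at least 50 UMIs, 1 was above 0 and 6 below, with a median log2 ratio of -0.11 (-0.24 to 0.05 over 13 alternatives), beside medians of 0.14 in alpha, 0.25 in delta and 0.49 in beta cells. Over all 4996 genes in PP cells, 1785 (35.7%) were above 0 and 3211 below. The study chose these genes on the same libraries, so the beta cell value is not independent evidence of a direction. Atf3, an activating transcription factor of the stress response, was at 651 and 647 CPM (-0.01, -0.12 to 0.10), beside 0.50 in beta cells. Ddit3, which encodes CHOP, was at 40.1 and 38.7 CPM (-0.05, -0.52 to 0.42), beside 0.49 in beta cells, and Sdf2l1 at 59.0 and 54.5 CPM (-0.11, -0.50 to 0.27).

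Fkbp11 was at 54.8 and 66.5 CPM in PP cells (0.28, -0.10 to 0.66), Hspa1a at 157 and 137 (-0.20, -0.44 to 0.04) and Hspa1b at 53.8 and 41.1 (-0.39, -0.82 to 0.04). Dnajb1, a cochaperone of Hsp70, was at 242 and 166 CPM, with a ratio of -0.54 (-0.75 to -0.34) against 0.14, 0.51 and 0.48 in alpha, delta and beta cells, and of -0.14 without cells that held 1% or more of another hormone. Nupr1 with 6 and 8 UMIs and Atf5 with 11 and 20 UMIs were too rare for a ratio of use. In beta cells the ratios of Fkbp11, Hspa1a and Hspa1b were 0.72, 0.55 and 0.47. For each of the 7 genes the PP interval ended below the beta cell ratio, at 0.66 for Fkbp11 and at most 0.42 for the others, and the difference between the classes was not tested.

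The medians of most gene lists lay near that of all genes in PP cells. The median log2 ratio was -0.02 for endoplasmic reticulum folding (45 genes, with 0.04 in alpha, -0.05 in delta and 0.17 in beta cells), -0.06 for nuclear oxidative phosphorylation, -0.05 for mitochondrially encoded genes, -0.06 for granule genes and -0.14 for transcription factors, beside -0.09 for all genes. Further from it lay receptor genes at 0.22, with 8 of 9 above 0 beside 35.7% of all genes. The interval lay above 0 for 0 of these receptors and below 0 for 1. Surface and adhesion genes were at -0.23, with 19 of 25 below 0, and intervals above 0 for 2 and below 0 for 5. Cytosolic ribosomal protein genes had a median of -0.15, with 79 of 80 below 0 and the interval of 58 below 0. Over all 4996 genes, 3211 were below 0 and the interval of 425 was below 0. The ribosomal median was -0.00617 with median-of-ratios scaling. The ribosomal share of a cell had a median of 6.10% in virgin and 5.67% in multipara PP cells and a wide overlap, from 3.80% to 15.7% and from 3.18% to 11.3%. When hormone genes were taken out of the totals the median of all genes was -0.0088 and that of ribosomal genes -0.06, while the folding, oxidative phosphorylation, mitochondrial and granule medians turned to 0.065, 0.022, 0.039 and 0.021.

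**Figure D5:**
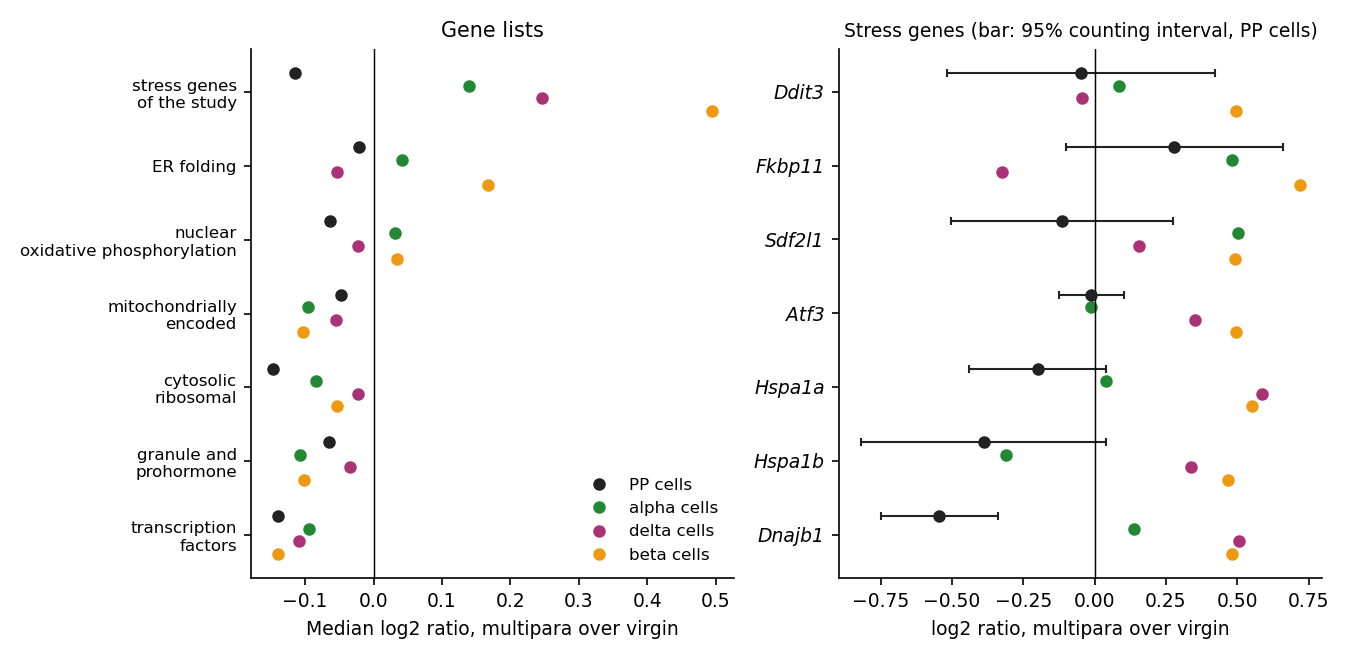
Left, median log2 ratio of multipara over virgin for 7 gene lists in PP (black), alpha (green), delta (purple) and beta (orange) cells. Right, the same ratio for 7 stress genes, with the exact 95% counting interval of PP cells as a bar. The PP median of the stress genes is -0.11 (-0.24 to 0.05 over the alternatives) and the beta median 0.49, and Dnajb1 is the gene whose PP interval lies wholly below 0.

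Of 8 genes linked to pregnancy or prolactin signalling with at least 50 UMIs, 6 were above 0, with a median of 0.27 (-0.05 to 0.41 over 13 alternatives), and the interval of 1, Serpina7, lay above 0. Over all 4996 genes, 35.7% were above 0 and the interval of 1.56% lay above 0. Serpina7 was at 22.7 and 41.1 CPM (log2 ratio 0.86, 0.32 to 1.42), with UMIs in 24 and 35 PP cells, beside 0.35 in alpha, -0.83 in delta and -0.95 in beta cells. Ghr, the growth hormone receptor, was at 0.17 (-0.31 to 0.66), Socs3, a feedback inhibitor of cytokine receptors, at 0.43 (-0.15 to 1.03) and Ivd at 0.37 (-0.26 to 1.01). Chgb (0.05), Wipi1 (0.36), Ddc (-0.16) and Lars2 (-0.23) also had intervals that held 0.

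Of 8 cell cycle genes with at least 50 UMIs, 2 were above 0 and 6 below, beside 35.7% of all genes above 0, with a median of -0.09, like that of all genes. Cdkn1a, which encodes p21, was at 25.8 and 16.3 CPM (log2 ratio -0.67, -1.34 to -0.0071, an interval that holds 0 once TMM factors add 0.10), beside 0.84 in alpha cells, and Ccnd1, Ccnd2, Ccnd3, Cdkn1b, Pcna, Tubb5 and H2afz had intervals that held 0. A UMI of Mki67, a marker of cycling cells, was found in 2 virgin and 2 multipara PP cells, a share of 2.30% in both (exact 95% interval 0.280 to 8.06). The shares in endothelial cells were 0.386% and 0.976% at their lower depth. They are given without thinning, so they do not compare how often the 2 cell types cycle. Among 31 immediate early genes the median was 0.02, beside -0.01 in alpha, 0.23 in delta and 0.16 in beta cells.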

How the data were processed

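Single-cell RNA was counted in islet cells of virgin and multiparous mice, 1 library each. Per the file headers and the submitters' processing notes, the authors made the deposited count tables, raw UMI counts per gene and barcode, with Cell Ranger 3.1.0 on GRCm38 (mm10), and the notes also name Seurat 3.0. The tables list 31053 genes, and 71 that share a symbol with another gene were kept apart by identifier. All later steps were run on these counts with Python 3.11.15 (numpy 2.4.6, pandas 2.3.3, scipy 1.17.1, scanpy 1.11.5 with Scrublet, matplotlib 3.10.9) and R 4.3.3 (edgeR 4.0.16, DESeq2 1.42.0). Cells were filtered and chosen by the thresholds given with the results. The members, the 27 gene lists and the tests were chosen with earlier results of these data known.

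Classes were compared with edgeR's quasi-likelihood test on 8 sums of counts (class plus library, TMM factors, filterByExpr, Benjamini-Hochberg adjustment over 12300 genes), and the hormones of the rule were not tested. Virgin and multipara cells were set side by side as log2 ratios of CPM with exact 95% counting intervals, for genes with at least 50 UMIs. Background cells were endothelial cells with at least 5 UMIs over Pecam1, Cdh5, Plvap, Flt1, Kdr, Egfl7, Esm1 and Emcn and every hormone of the rule under 5%. Genes were named by rule: the markers, the 15 higher and up to 10 lower genes against all 3 classes with at least 20 CPM, the 12 highest and 12 lowest ratios seen in at least 10% of the cells of the higher library and with the same sign at equal cell weight, the stress, pregnancy and cell cycle lists, and members of 6 lists called against at least 2 classes. Outside this rule, Irx1, Pcsk1, Pcsk2, Mki67, genes at 0 UMIs and the ratios of Chga and Iapp were named after their values were seen. Alternatives covered the cell filter, doublets, hormone thresholds, scaling, DESeq2, low-count filters, equal cell weights and thinning, and library sizes without TMM were added after seeing the data. Scripts were tested on simulated data. All sample columns were used. Results for a few genes that the rule names are not reported here.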

Additional observations from a re-analysis of the deposited data

Results flagged for a closer look

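Dnajb1, an Hsp70 cochaperone, had a log2 ratio of multipara over virgin of -0.54 in PP cells (exact 95% counting interval -0.75 to -0.34, 459 virgin and 347 multipara UMIs), while the ratio was 0.14 in alpha cells (0.054 to 0.22), 0.51 in delta cells (0.42 to 0.59) and 0.48 in beta cells (0.44 to 0.52). It was singled out because its interval lay below 0 in PP cells and above 0 in each other class. With 1 library per group the difference between the classes was not tested. The PP ratio was -0.14 without cells that held 1% or more of another hormone, -0.33 after cells were thinned to 10000 UMIs, -0.61 with equal cell weights, between -0.46 and -0.40 under the other scalings and between -0.58 and -0.42 under the other choices of cells.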

How the results depend on the processing

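The share of PP cells in the virgin and multipara libraries was 1.46% and 1.90% when every other hormone had to stay under 1%, 2.54% and 3.23% with a mitochondrial share under 5%, and 1.91% for multipara without the cell filter. Genes called against delta cells numbered 4107 with library sizes only, an alternative chosen after seeing the data, and 758 to 1103 under the other 10, against 1000. The 41 genes past 2-fold between multipara and virgin became 25 with TMM scaling, 26 with median-of-ratios scaling, 27 without hormone genes in the totals, 105 with equal cell weights, 329 of 8088 at 20 or more UMIs and 0 of 1337 at 200 or more. These scalings moved the median of all genes from -0.09 to 0.0094, 0.046 and -0.0088. In that order, list medians became 0.083, 0.12 and 0.065 for endoplasmic reticulum folding, 0.13, 0.16 and 0.11 for immediate early genes and 0.039, 0.076 and 0.021 for granule genes, and they turned direction to 0.040, 0.076 and 0.022 for oxidative phosphorylation and to 0.057, 0.093 and 0.039 for mitochondrially encoded genes. Ribosomal genes went to -0.043, -0.00617 and -0.061, and to -0.18 with equal cell weights, -0.11 after thinning and -0.19 with other hormones under 1%, where oxidative phosphorylation went to -0.12. Transcription factors went to -0.27 with equal cell weights. Krtap17-1 turned to -0.62 with other hormones under 1%. The cause of these shifts was not tested. No paired analysis was possible because virgin and multipara have 1 library each and share only replicate number 1. Counts of genes called against alpha and beta cells stayed within 1.5 times the reported 701 and 2066 under 11 alternatives each (660 and 1898 with DESeq2). Fits without 1 library leave no replicate of a class and gave no test. Depth limits genes under 50 UMIs, and the exact number of mice behind each library was not given in the sources used here beyond at least 2 per group.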
